A study of Mus musculus with 10 samples.

Results

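The 10 core circadian clock genes Per1, Per2, Per3, Cry1, Cry2, Arntl (the gene of BMAL1), Clock, Npas2, Nr1d1 and Nr1d2 were followed in mouse brain after controlled cortical impact, an injury model in which an impactor deforms the cortex through an opening in the skull. They were taken by name from the 30142 genes with a probe set that names them alone, and each of the 10 had exactly 1 such probe set. Ipsilateral tissue came from the impact site 7 days after a 2 mm impact (5 samples), and contralateral tissue from the matching region of the uninjured hemisphere of injured mice (5 samples). The mice, male and female, were 8 to 12 weeks old according to the labels. The labels give no strain, name no transgene or drug, and do not say whether a replicate number stands for the same mouse on both sides. They include no sham-operated mice, and the hour of tissue collection was not given in the sources used here. Every sample has 1 expression array, values are deposited log2 signals, and the 10 arrays limit the precision of every comparison.

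The circadian clock is a transcriptional feedback loop that runs in most cells. A heterodimer of BMAL1 with CLOCK, or with its paralog NPAS2 in the forebrain, binds E-box elements and drives the Per and Cry genes, whose products return to the nucleus and repress that heterodimer. In a second loop the nuclear receptors REV-ERB (Nr1d1 and Nr1d2) repress, and the ROR receptors activate, Arntl through a shared response element. In rodent tissues Arntl transcripts therefore peak at about the opposite time of day to those of Per2, Per3, Nr1d1 and Dbp. Per1 is also known as an immediate early gene that neuronal activity induces through CREB.

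All 10 clock genes had a lower mean on the ipsilateral side, and 4 of them fell: Per1, Cry1, Cry2 and Npas2. None rose (0 in limma at an adjusted p under 0.05, and 0 at an unadjusted p under 0.05). The share of all 30142 genes called lower by the same test was 4.33%, and 5.55% were called in either direction. Of the 15070 brighter genes, which include all 10, 8.29% were called lower. At an unadjusted p under 0.05, 7 of the 10 were lower, against 11.3% of all genes. The median log2 fold change (ipsilateral minus contralateral) of the 10 was -0.42, beside 0.02 over all genes and -0.01 over the brighter ones. Negative fold changes made up 43.9% of all genes and 52.8% of the brighter ones. In 3 of the 10 (Cry1, Cry2 and Npas2) every ipsilateral array lay below every contralateral one, which held for 5.21% of all genes and 9.85% of the brighter ones. In none of the 10 was every ipsilateral array above every contralateral one, which held for 2.04% of all genes.

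**Figure D1:**
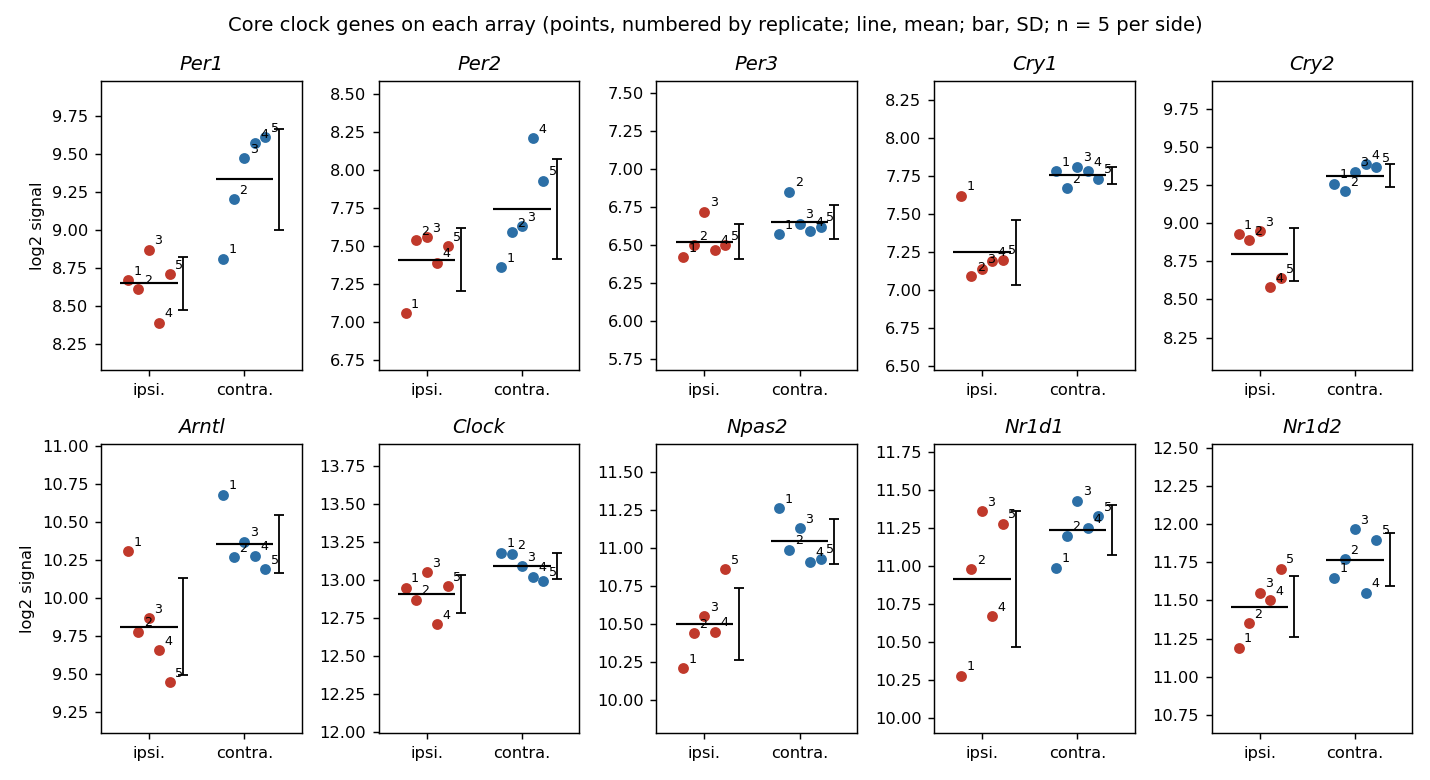
Log2 signal of each core clock gene on each array (y axis, the same span in every panel), ipsilateral left and contralateral right, with replicate numbers beside the points. Lines are means and bars SD (n = 5 per side). Cry1, Cry2 and Npas2 do not overlap between sides, and ipsilateral replicate 1 lies at the top of its side for Arntl and Cry1 and at the bottom for Per2, Per3, Npas2, Nr1d1 and Nr1d2.

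Array medians were 4.79 to 4.84 on the ipsilateral and 4.71 to 4.77 on the contralateral side, and the dimmest of the 10 genes, Per3, averaged 6.59 over all arrays. Arrays of the ipsilateral side correlated across genes at 0.990 to 0.996 and those of the contralateral side at 0.992 to 0.997. Some libraries stood apart. Ipsilateral replicate 1 had an Arc signal of 12.07, against 8.29 to 10.12 on the other ipsilateral arrays, and a Gad1 signal of 14.65, against 11.72 to 12.35. Contralateral replicate 4 had a Pvalb signal of 7.48, against 8.47 to 8.78 on the other contralateral arrays. Without ipsilateral replicate 1, 5 of the 10 clock genes were called lower (Arntl was the added one), and without contralateral replicate 4, 3 were (Per1 was lost). The count was lowest, at 2 (Cry1 and Cry2), without ipsilateral replicate 2, without ipsilateral replicate 4 and without contralateral replicate 3.

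The Per genes encode the period proteins, which carry the cryptochromes into the nucleus. Per1 stood at 8.67, 8.61, 8.87, 8.39 and 8.71 on ipsilateral arrays 1 to 5, against 8.81, 9.20, 9.47, 9.57 and 9.61 on contralateral arrays 1 to 5. Contralateral replicate 1 lay inside the ipsilateral range, and 4 ipsilateral arrays lay below every contralateral one. Per1 fell by 0.68 on the log2 scale, to 62.3% of the contralateral signal (log2 fold change -0.68 ± 0.15 (SE), adjusted p = 0.0265 in limma). Its call ended on leaving out ipsilateral replicate 2, 4 or 5, or one of contralateral replicates 3, 4 and 5 (highest adjusted p 0.0744). Per1 passed with adjusted p = 0.00724 without contralateral replicate 1.

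Per2 and Per3 did not pass. Per2 stood at 7.06, 7.54, 7.56, 7.39 and 7.50 on ipsilateral arrays 1 to 5, against 7.36, 7.59, 7.63, 8.21 and 7.93 on contralateral arrays 1 to 5. The groups overlapped, with ipsilateral replicate 1 lowest and contralateral replicate 4 highest, and the log2 fold change was -0.33 with a 95% interval of -0.68 to 0.01 (adjusted p = 0.251), and -0.22 without contralateral replicate 4. Per3 stood at 6.42, 6.50, 6.72, 6.47 and 6.50 on ipsilateral arrays 1 to 5, against 6.57, 6.85, 6.64, 6.59 and 6.62 on contralateral arrays 1 to 5. Apart from ipsilateral replicate 3, the ipsilateral arrays of Per3 lay just below the contralateral ones, and the log2 fold change was -0.13 with a 95% interval of -0.30 to 0.03 (adjusted p = 0.354). It was -0.08 without contralateral replicate 2 and -0.20 with median centring.

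The Cry genes encode the cryptochromes, the direct repressors of the CLOCK and BMAL1 heterodimer, and both fell. Cry1 stood at 7.62, 7.09, 7.14, 7.19 and 7.20 on ipsilateral arrays 1 to 5, against 7.78, 7.67, 7.81, 7.78 and 7.73 on contralateral arrays 1 to 5. The contralateral arrays were close together, 4 ipsilateral arrays lay well below them, and ipsilateral replicate 1 was just under the lowest. The log2 fold change of Cry1 was -0.51 ± 0.09 (SE), or 70.4% of the contralateral signal (adjusted p = 0.0124). Cry2 stood at 8.93, 8.89, 8.95, 8.58 and 8.64 on ipsilateral arrays 1 to 5, against 9.26, 9.21, 9.34, 9.39 and 9.37 on contralateral arrays 1 to 5. Here too the sides did not overlap, with ipsilateral replicates 4 and 5 lowest. The log2 fold change of Cry2 was -0.52 ± 0.09 (SE), or 69.9% of the contralateral signal, and its adjusted p of 0.00651 was the smallest of the 10. Both calls held in each of the 10 fits that left out 1 array, with adjusted p up to 0.0401 for Cry1 and 0.0225 for Cry2.

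Among the activators, Npas2, the forebrain partner of BMAL1, fell. It stood at 10.21, 10.44, 10.55, 10.45 and 10.86 on ipsilateral arrays 1 to 5, against 11.26, 10.99, 11.13, 10.91 and 10.93 on contralateral arrays 1 to 5. The sides did not overlap, but ipsilateral replicate 5 came within a narrow gap of the contralateral range. The log2 fold change of Npas2 was -0.54 ± 0.12 (SE), or 68.7% of the contralateral signal (adjusted p = 0.0225). Its call ended on leaving out ipsilateral replicate 2 or 4, or one of contralateral replicates 1 and 3 (highest adjusted p of these 0.0642), without both arrays numbered 1 (log2 fold change -0.415, adjusted p = 0.0664), and with cyclic loess scaling (adjusted p = 0.0563).

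Arntl had a fold change as large as that of Npas2 and did not pass on all 10 arrays. It stood at 10.31, 9.78, 9.87, 9.66 and 9.45 on ipsilateral arrays 1 to 5, against 10.68, 10.27, 10.37, 10.28 and 10.19 on contralateral arrays 1 to 5. Only ipsilateral replicate 1 overlapped the contralateral side, and replicate 1 was the highest array of both sides. The log2 fold change was -0.54 ± 0.15 (SE), with adjusted p = 0.0630. Arntl passed without ipsilateral replicate 1 (-0.67, adjusted p = 0.00882), without both arrays numbered 1 (-0.59, adjusted p = 0.0148), with array weights (adjusted p = 0.0277), with median centring (0.0227) and with the lowest 50% of genes left out (0.0400), but not with the lowest 25% left out (0.0517).

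Clock did not pass. It stood at 12.95, 12.87, 13.05, 12.71 and 12.96 on ipsilateral arrays 1 to 5, against 13.18, 13.17, 13.09, 13.02 and 12.99 on contralateral arrays 1 to 5. The highest ipsilateral array, replicate 3, was above 2 contralateral ones, and the log2 fold change was -0.18 with a 95% interval of -0.34 to -0.02 (adjusted p = 0.183), and -0.12 with cyclic loess scaling.

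The REV-ERB genes, whose products repress Arntl, did not pass either. Nr1d1 stood at 10.28, 10.98, 11.36, 10.67 and 11.28 on ipsilateral arrays 1 to 5, against 10.99, 11.20, 11.43, 11.25 and 11.33 on contralateral arrays 1 to 5. Ipsilateral replicates 3 and 5 lay within the contralateral range and replicate 1 far below it, which made Nr1d1 the member with the widest ipsilateral spread (SD 0.45). The log2 fold change of Nr1d1 was -0.33 with a 95% interval of -0.74 to 0.09 (adjusted p = 0.361), and -0.17 without ipsilateral replicate 1. Nr1d2 stood at 11.19, 11.35, 11.55, 11.50 and 11.71 on ipsilateral arrays 1 to 5, against 11.65, 11.77, 11.97, 11.55 and 11.90 on contralateral arrays 1 to 5. The sides of Nr1d2 overlapped, and the log2 fold change was -0.31 with a 95% interval of -0.55 to -0.06 (adjusted p = 0.138). The SD was larger on the ipsilateral side in 8 of the 10 genes, as it was in 63.6% of all genes. Per1 and Per2 were the exceptions.

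**Figure D2:**
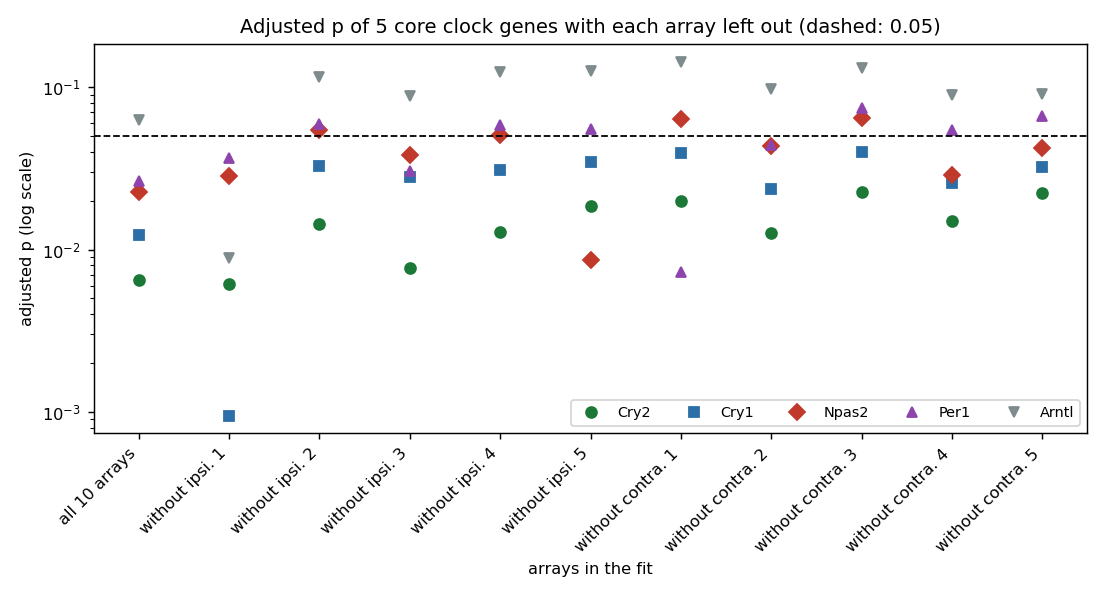
Adjusted p in limma (log y axis, dashed line at 0.05) of 5 core clock genes with all 10 arrays and with each array left out (x axis). Cry1 and Cry2 stay below 0.05 in every fit, Per1 and Npas2 lie on both sides of it, and Arntl is below it only without ipsilateral replicate 1.

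Whether paralogs differed in their side difference was tested on the log2 difference between both genes on each array (exact two-sided permutation test, 6 pairs, Benjamini-Hochberg adjusted over the pairs). The smallest p this design allows is 0.00794. Per1 differed from Per3 by -0.55 ± 0.17 (SE) in its side difference (exact p = 0.0159, adjusted p = 0.0714), and Npas2 from Clock by -0.36 ± 0.12 (exact p = 0.0238, adjusted p = 0.0714). Per1 differed from Per2 by -0.35 ± 0.14 (exact p = 0.0476, adjusted p = 0.0952). None of these passed after adjustment, except Per1 against Per3 without contralateral replicate 1 and Npas2 against Clock without ipsilateral replicate 5 (adjusted p = 0.0476 in each). The side differences of Cry1 and Cry2 were 0.01 ± 0.11 apart (exact p = 0.944), those of Nr1d1 and Nr1d2 -0.02 ± 0.15 (exact p = 0.929) and those of Per2 and Per3 -0.20 ± 0.18 (exact p = 0.325), or -0.07 without contralateral replicate 4.

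The promoter windows of the 4 genes that fell are shown because clock feedback acts through short elements near the start site. RefSeq windows of GRCm38.p6, from 250 bases before to 50 bases after the start, were held for 9 of the 10 members (13 windows, none for Per2). They were searched on both strands for the E-box CACGTG, its variant CACGTT, the D-box forms TTATGTAA and TTACGTAA, the ROR and REV-ERB element (TAGGTCA or TGGGTCA, preceded by an A and 2 free bases), and the CREB element TGACGTCA. The forms of each element differ by 1 base, and no match found in the member windows shared a base with another. The stretches before the start were chr11:69098699-69098948 (plus strand) for Per1, chr10:85185055-85185304 (minus strand) for Cry1, chr2:92434070-92434319 (minus strand) for Cry2 and chr1:39194022-39194271 (plus strand) for Npas2. Capitals mark the matches, and CACGTT reads AACGTG where it lies on the other strand.
Per1: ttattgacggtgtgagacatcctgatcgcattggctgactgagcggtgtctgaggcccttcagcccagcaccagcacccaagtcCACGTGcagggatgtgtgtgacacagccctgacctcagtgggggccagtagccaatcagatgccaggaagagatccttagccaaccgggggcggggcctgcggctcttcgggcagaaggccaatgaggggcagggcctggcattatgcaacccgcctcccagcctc
Cry1: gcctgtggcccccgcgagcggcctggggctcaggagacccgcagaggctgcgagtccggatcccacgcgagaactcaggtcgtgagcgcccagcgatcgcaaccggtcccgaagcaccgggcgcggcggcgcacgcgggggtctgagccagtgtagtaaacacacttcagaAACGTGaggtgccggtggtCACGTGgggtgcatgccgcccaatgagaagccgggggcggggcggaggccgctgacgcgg
Cry2: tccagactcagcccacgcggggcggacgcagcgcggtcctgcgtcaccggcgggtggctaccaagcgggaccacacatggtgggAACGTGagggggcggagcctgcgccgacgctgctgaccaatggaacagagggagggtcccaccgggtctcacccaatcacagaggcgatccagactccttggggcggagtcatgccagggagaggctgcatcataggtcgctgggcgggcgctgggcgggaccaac
Npas2: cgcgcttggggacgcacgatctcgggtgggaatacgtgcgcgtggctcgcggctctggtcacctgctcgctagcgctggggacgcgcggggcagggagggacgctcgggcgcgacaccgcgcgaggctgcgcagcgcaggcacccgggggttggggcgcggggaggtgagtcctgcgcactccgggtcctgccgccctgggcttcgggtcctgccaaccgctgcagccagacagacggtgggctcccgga

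Per1 held CACGTG 166 bases before its start. Cry1 held CACGTG 60 bases and CACGTT 79 bases before the start, and Cry2 held CACGTT 166 bases before it. Npas2 held none of the searched forms. Among all 32851 windows, 7.15% held CACGTG and 4.68% held CACGTT, and the members with a match were Per1 and Cry1 for the first and Cry1, Cry2 and Nr1d1 for the second. Of the genes that did not pass, Per3 held TTATGTAA 205 and 158 bases before its start, a form found in 0.938% of windows, and Arntl held the TAGGTCA form of the ROR and REV-ERB element 28 bases after 1 of its start sites, a form found in 0.700% of windows. TTACGTAA, the TGGGTCA form and TGACGTCA were in no member window, and in 0.119%, 0.913% and 1.79% of all windows. The Per3 stretch (chr4:151044796-151044885, minus strand) and the Arntl site (chr7:113207530-113207555, plus strand) are shown because the D-box binds Hlf and Dbp, and the Arntl element binds ROR and REV-ERB, whose genes are described next.
Per3: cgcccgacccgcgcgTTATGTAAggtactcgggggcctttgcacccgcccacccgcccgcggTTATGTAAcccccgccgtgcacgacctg
Arntl: aaggcagaAAGTAGGTCAgggacgga

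The ROR genes, which encode the activators at the Arntl element, had larger fold changes than any of the 10 core genes, a difference that was not tested. Rora stood at 10.43, 10.85, 11.18, 10.59 and 10.92 on ipsilateral arrays 1 to 5, against 11.92, 12.22, 11.93, 12.40 and 11.86 on contralateral arrays 1 to 5, and Rorb, which also marks neurons of neocortical layer IV, averaged 11.43 ± 0.42 ipsilaterally and 12.67 ± 0.12 contralaterally (SD, n = 5 each). The sides did not overlap in either gene. Log2 fold changes were -1.27 ± 0.15 (SE) for Rora (adjusted p = 0.00161) and -1.25 ± 0.17 for Rorb (adjusted p = 0.00291). These are the brightest probe sets of each gene. The other probe sets gave differences of -0.79 and 0.10 for Rora, the last at means of 5.21 and 5.10 ipsilaterally and contralaterally, and -0.96 for Rorb. Arntl2, a paralog of Arntl, did not pass (0.04).

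The clock output factors did not move as a group, with 2 of 6 lower and none higher. Beside them, 4.33% of all genes and 8.29% of the brighter ones were called lower. Hlf, a PAR bZIP activator at D-boxes, fell (log2 fold change -1.05, 9.31 ± 0.33 ipsilaterally and 10.37 ± 0.26 contralaterally, adjusted p = 0.00572). Its close relatives Dbp and Tef had log2 fold changes of 0.05 (95% interval -0.48 to 0.58) and 0.01 (95% interval -0.22 to 0.23). Bhlhe40 (DEC1), a repressor at E-boxes, fell (log2 fold change -0.78, 9.35 ± 0.25 ipsilaterally and 10.13 ± 0.21 contralaterally, adjusted p = 0.00822), while its paralog Bhlhe41 was at 0.33 (adjusted p = 0.401). Nfil3, the D-box repressor, was at -0.09 (adjusted p = 0.769).

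**Figure D3:**
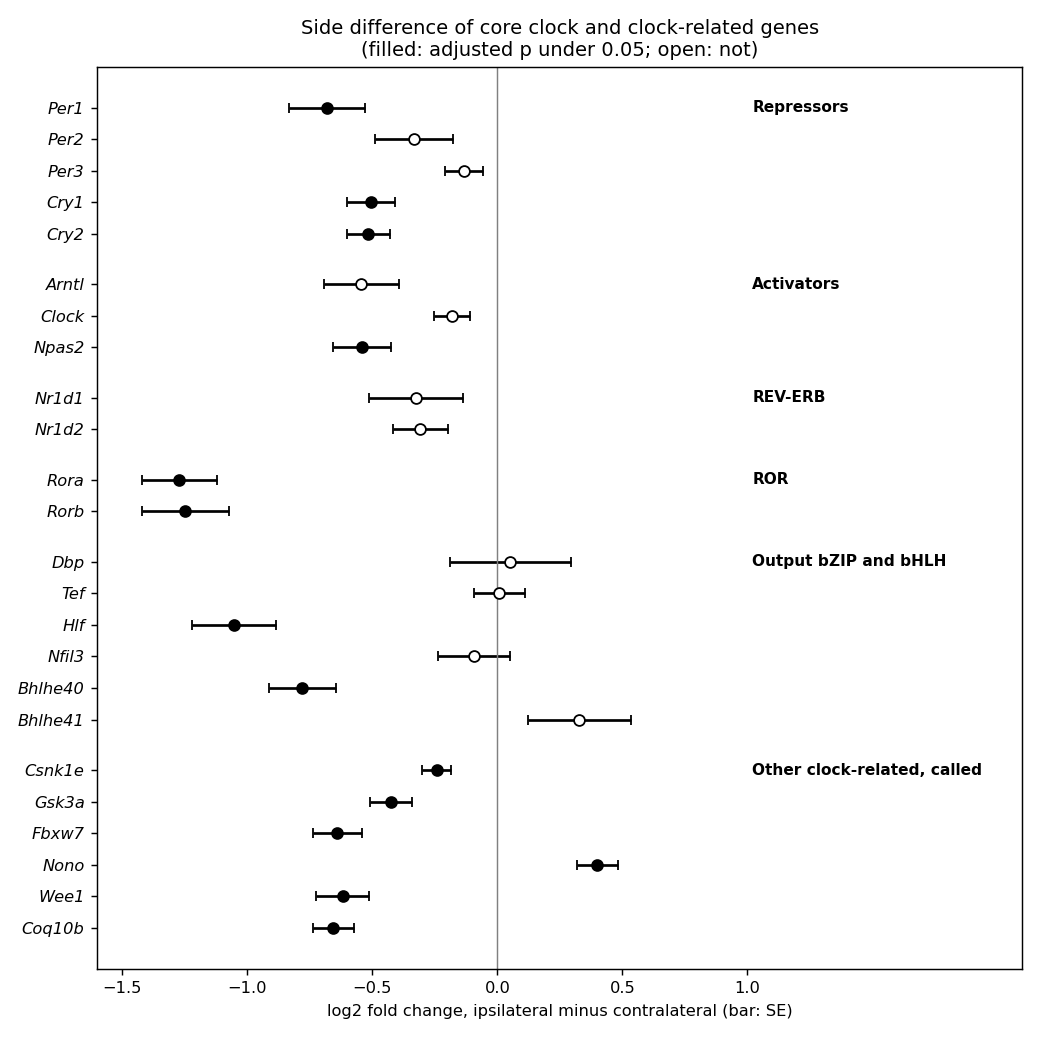
Log2 fold change, ipsilateral minus contralateral (x axis, bars SE), of the 10 core clock genes, Rora, Rorb, the 6 output factors and the called genes among the kinases, ligases, partners and clock-controlled genes. Input genes and neuropeptides are not plotted. Filled points passed at an adjusted p under 0.05. All 10 core genes lie left of 0, Rora, Rorb and Hlf lie farthest left of the genes plotted, Dbp and Tef lie near 0, and Nono is the only filled point to the right.

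Outside the 10, 76 measured clock-related genes were followed, of which 17 fell and 1 rose, with a median log2 fold change of -0.11. The 76 include Ucma, which a shared synonym put in the place of the listed Grp and which was not called. The background was the same, with 4.33% of all genes called lower and 1.22% higher, and 8.29% of the brighter ones called lower. Of 24 kinases, ubiquitin ligase parts and partners of the clock proteins, 3 fell and 1 rose. Fbxw7, the substrate-binding part of a ubiquitin ligase, fell (-0.64, adjusted p = 0.00454), as did the kinase gene Gsk3a (-0.43, adjusted p = 0.0154, but 0.0649 without both arrays numbered 1). Csnk1e, a kinase of the PER proteins, fell (-0.24, adjusted p = 0.0366), a call that ended in every fit leaving out 1 array other than ipsilateral replicate 1 (adjusted p up to 0.0940), with quantile scaling (-0.17, adjusted p = 0.0870) and with cyclic loess scaling (-0.16, adjusted p = 0.133). Nono, an RNA-binding partner of the PER proteins, rose by 0.40 ± 0.08 (SE, adjusted p = 0.0195), and lost its call on leaving out contralateral replicate 1, 3 or 5 (highest adjusted p 0.0590) or both arrays numbered 1 (0.0821). Of 11 other clock-controlled genes, which include Per3, 2 fell: Wee1, a cell cycle kinase (-0.62, adjusted p = 0.00787), and Coq10b, a mitochondrial coenzyme Q-binding protein (-0.66, adjusted p = 0.00185).

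Per1 is known to respond to neuronal activity and to glucocorticoids, and some genes listed for each input fell. Any link of these genes to the Per1 difference was not tested. For the counts below, the shares called lower were 4.33% of all genes and 8.29% of the brighter ones. Of 15 CREB and immediate early genes 4 fell, namely Arc (-3.44), Egr1 (-1.96), the phosphatase gene Dusp1 (-1.25) and Egr4 (-0.61), with adjusted p from 0.00609 to 0.0156. On ipsilateral replicate 1 the summed signal of this list was 14.17 on the log2 scale, against 14.30 to 15.11 contralaterally, and ipsilateral replicate 5 was lowest at 12.19. Of 12 glucocorticoid-related genes 3 fell: Klf9, a glucocorticoid-induced transcription factor (-1.05, adjusted p = 0.000837), the receptor gene Nr3c1 (-0.53, adjusted p = 0.00854), and Zbtb16 (-0.97, adjusted p = 0.0447). The call of Zbtb16 ended on leaving out any 1 array other than ipsilateral replicates 2 and 5 and contralateral replicate 4 (highest adjusted p of these 0.112), without both arrays numbered 1 (0.139), and with quantile (0.0660) or cyclic loess scaling (0.0695). Fkbp5, another glucocorticoid-induced gene, was at 0.26 (adjusted p = 0.0697), and was called higher without ipsilateral replicate 1, without both arrays numbered 1, with array weights and with the lowest 50% of genes left out. A further list held 8 measured genes for neuropeptides of the suprachiasmatic clock and their receptors. Among them Ucma is not such a gene, and entered through a shared synonym in place of the listed Grp. Of the 8, 2 had a negative fold change, and the median was 0.19. Vip, which cortical interneurons also express, fell (-1.12, adjusted p = 0.00586). The receptor gene Prokr2 was at 0.88 (adjusted p = 0.101), and was called higher without contralateral replicate 4. Avp and Nms had means below the array medians.

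Some markers of cell types and regions differed between sides, and their part in the clock results was not tested. Over all genes 4.33% were called lower and 1.22% higher, and 8.29% of the brighter ones were called lower. No gene was called in the microglial, oligodendrocyte, endothelial or striatal lists, and the neocortical sums alone did not overlap between sides. In tissue RNA, fewer cells of a type and less RNA per cell cannot be told apart. No marker was at 0. Signals were summed unlogged, so the brightest genes of a list weigh most in its sum. On the log2 scale, the summed signal of 11 neocortical layer genes was 13.82 to 14.44 ipsilaterally and 14.69 to 14.90 contralaterally. Of these, 8 had a negative fold change. In limma 4 fell and 1 rose, namely Bcl11b (0.86, adjusted p = 0.0106). Cux2 had the smallest adjusted p (-0.77, adjusted p = 0.00197), and Lamp5 had a larger fold change (-2.24, adjusted p = 0.00238). The sum of 9 microglia and macrophage genes was 12.80 to 15.08 ipsilaterally and 12.15 to 13.09 contralaterally, with none called (C1qb at 1.83, adjusted p = 0.0580, which passed without ipsilateral replicate 1 at 0.0178). All 7 excitatory neuron genes had a negative fold change (median -0.47), and 2 fell (Tbr1 at -1.09 among them). Their sum, set mostly by the brightest gene Camk2a (-0.17, not called), was 18.11 to 18.45 ipsilaterally and 18.20 to 18.61 contralaterally. For 7 inhibitory neuron genes it was 14.31 to 15.59 ipsilaterally and 14.61 to 14.85 contralaterally, and 2 fell (Pvalb at -1.84 among them). Only 3 of these 7 had a negative fold change, and the general inhibitory markers Gad1, Gad2 and Slc32a1 were at 0.21, 0.60 and 0.05, none called. For 8 astrocyte genes the sum was 17.24 to 18.46 ipsilaterally and 17.59 to 17.84 contralaterally, and Aqp4 rose by 0.95. Of these 8 genes, 2 had a negative fold change. The sum of 5 oligodendrocyte genes was 12.71 to 14.11 ipsilaterally and 13.22 to 14.65 contralaterally (Mog at -1.32, adjusted p = 0.0537, which passed without ipsilateral or without contralateral replicate 4), and that of 5 endothelial genes 11.55 to 12.11 ipsilaterally and 11.71 to 12.16 contralaterally (Flt1 at -0.36, adjusted p = 0.108). Flt1 was the only endothelial gene of the 5 with a negative fold change, and Cldn5 was at 0.37 (adjusted p = 0.225). The sums of the 3 lists for regions below the neocortex overlapped between sides. Striatal genes (6) summed to 9.73 to 11.13 ipsilaterally and 9.38 to 9.84 contralaterally (Penk at 1.22, adjusted p = 0.0589, which passed without ipsilateral replicate 2 or 5), hippocampal genes (4) to 11.96 to 12.89 ipsilaterally and 11.20 to 12.07 contralaterally (Wfs1 rose by 1.76), and thalamic genes (6) to 10.42 to 14.11 ipsilaterally and 9.73 to 10.94 contralaterally (Ramp3 fell by 0.91). Negative fold changes were held by 1 of the 6 striatal, 2 of the 4 hippocampal and 3 of the 6 thalamic genes. Among the thalamic genes, Calb2 was at 2.44 with no overlap between sides (adjusted p = 0.108), and Tcf7l2 was at 0.32 (adjusted p = 0.298). Calb2 stood at 14.06 on ipsilateral replicate 1, against 9.11 to 10.62 on the other ipsilateral arrays. The highest thalamic sum, 14.11, was on that same array.

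The arrays numbered 1 deviated alike on both sides for some of the clock genes. Of the 10 core genes and the 6 output factors, Arntl and Nfil3 were highest in replicate 1 on both sides, and Per2, Per3, Nr1d1, Dbp, Tef and Bhlhe41 were lowest in replicate 1 on both sides. On the contralateral side the gap was narrow for Per3 (6.57, next lowest 6.59) and Tef (7.90, next lowest 7.94). Dbp stood at 9.60 on ipsilateral replicate 1 against 10.48 to 11.03 on the other ipsilateral arrays, and at 9.88 on contralateral replicate 1 against 10.43 to 10.72 on the other contralateral arrays. Nr1d1 was 0.79 below the mean of the other ipsilateral arrays and 0.31 below that of the other contralateral arrays, and Arntl was 0.62 and 0.40 above them. No other replicate number was extreme in the same direction on both sides for more than 1 gene at the top and 1 at the bottom. Npas2 went opposite ways on both sides, lowest in ipsilateral and highest in contralateral replicate 1. This pattern was noticed in the values and was not tested, and the share of all genes that behave so is not given here. Over all genes, the deviations of both arrays numbered 1 from their side means correlated at 0.259. That was the highest value of the same-numbered pairs, which began at -0.399, and other pairs gave -0.371 to 0.485. Without both arrays numbered 1, a setting chosen after seeing the data, Per1, Cry1, Cry2 and Arntl were called lower.

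**Figure D4:**
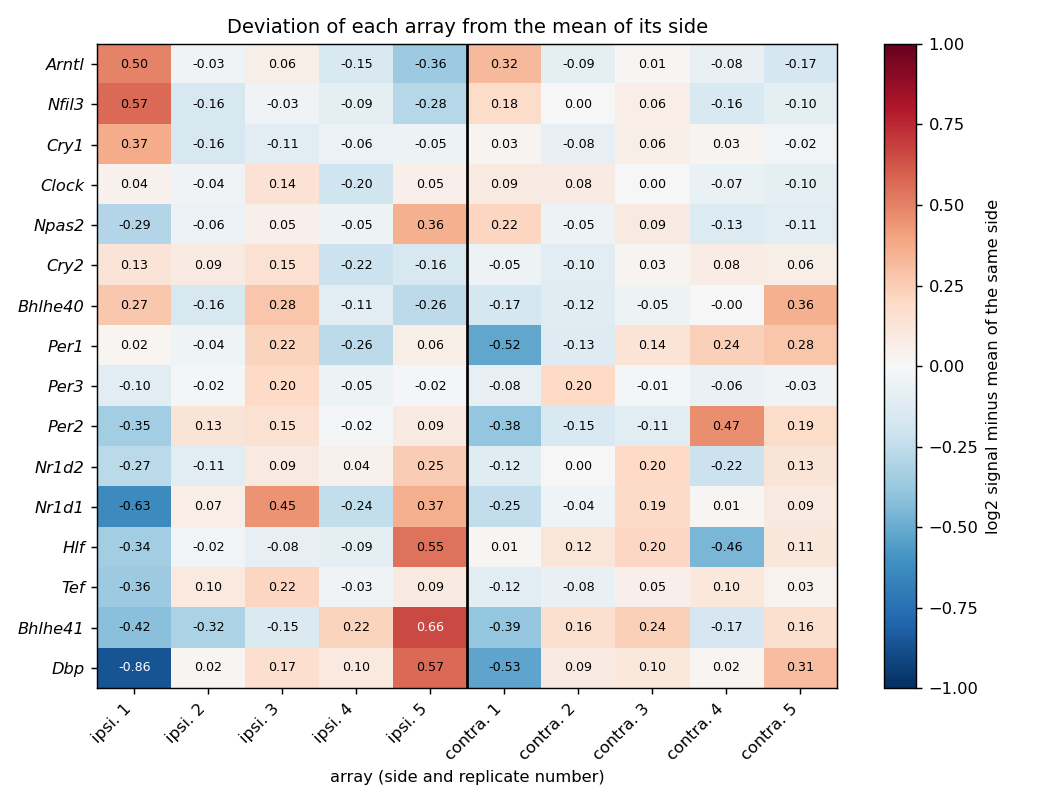
Log2 signal of each array minus the mean of its side, for the 10 core clock genes and 6 clock output factors (rows), by array (columns, ipsilateral left). Red is above and blue below the side's mean. The columns numbered 1 are red for Arntl and Nfil3 and blue for Dbp, Nr1d1 and Per2 on both sides.

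Cry2 had the largest absolute moderated statistic of the 10. The genes most like it over the 10 arrays were Iqsec2, a synaptic exchange factor for ARF proteins (Pearson r = 0.983), Ggnbp2 (0.981) and Tsc1, an inhibitor of mTOR signalling (0.975). Their log2 fold changes were -0.46, -0.20 and -0.32. The correlations include the side difference, and 451 genes had r over 0.9 with Cry2.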

How the data were processed

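Total RNA of 5 ipsilateral and 5 contralateral samples was extracted on RNeasy columns and prepared with the Affymetrix WT PLUS kit, per the labels' protocols. The authors deposited 1 log2 signal per probe set and array. The submitters' processing notes name Transcriptome Analysis Console 4.0. That the unit is log2 was inferred from the range of values, and how the authors normalized them, and on which build, is not given here.

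Of 65956 rows, 30604 named 1 gene, 2146 several and 33206 none here. Symbols were updated through Entrez identifiers with the RefSeq table of GRCm38.p6, and the brightest row per gene was kept (30142 genes). Ipsilateral minus contralateral was fitted over all genes in limma 3.58.1 (R 4.3.3) with lmFit and eBayes, no covariates, with a two-sided threshold of 0.05 on p adjusted by Benjamini-Hochberg. Adjusted p of single genes are of this fit. Permutation tests and motif searches used Python 3.11.15 with scipy 1.17.1.

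The members, the gene lists and the rule for named genes were chosen with earlier results of these data known. Named were the 10 members, the called genes of each clock-related list (all lists held 5 or fewer), or its strongest member where none was called, the strongest gene of each marker list, and the 3 genes most correlated with the strongest member. Symbols beginning with Gm and a digit or with LOC, or ending in Rik, were left out of those 3. Gad1, Gad2, Slc32a1, Cldn5, Lamp5, Bcl11b, Camk2a, Calb2, Tcf7l2, Arntl2, Fkbp5, Avp, Nms, Prokr2, Ucma and the uncalled output factors were named after their values were seen. The 20 lists held 165 genes, 152 of them measured. The measured ones include Ucma, which the synonym lookup put in the place of Grp. On simulated data with 200 changed genes among 30142, the ipsilateral against contralateral comparison recovered 64.2% of changes of 0.5, 88.1% of changes of 1 and 97.0% of changes of 2 on the log2 scale. Deviations of same-numbered arrays from their side means correlated at -0.40 to 0.26 over genes, so replicate numbers were not taken as pairs. Alternatives were a fixed and a random replicate block, trended and robust variance, array weights, 3 scalings, 2 filters on dim genes, the mean of a gene's rows, a threshold of 0.01, a permutation test, and each array left out. No batch or scan date was given, so batches were not tested.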

Additional observations from a re-analysis of the deposited data

Results flagged for a closer look

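For 47 of the named genes, 94 groups of 5 arrays were examined (1 per gene and side). In 8 of them an array stood far from the other 4, where chance gives about 1 in 20. Among the clock genes, Cry1 was high on ipsilateral replicate 1 (7.62, with the others at 7.09 to 7.20), Per3 was high on ipsilateral replicate 3 (6.72, with the others at 6.42 to 6.50) and Per3 was high on contralateral replicate 2 (6.85, with the others at 6.57 to 6.64). Contralateral replicate 4 was low for Hlf (9.91, others 10.38 to 10.57), Zbtb16 (8.58, others 9.25 to 9.41), Pvalb (7.48, others 8.47 to 8.78) and Mog (8.53, others 9.61 to 10.02). Cux2 was high on ipsilateral replicate 1 (8.07, others 7.56 to 7.65).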

How the results depend on the processing

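All 10 clock genes kept a negative fold change in all 22 alternative fits. The sign could not change with the replicate blocks, trended variance, the filters, the threshold of 0.01 or the mean of rows. Those settings leave the fold change of these genes as it was. Cry2 passed in all 22, and Cry1 in all but that with the threshold of 0.01. The number of core clock genes called lower was 4, and 1 at the threshold of 0.01 (Cry2), 3 with the fixed replicate block or cyclic loess scaling, 5 with array weights, median centring or the lowest 50% of genes left out, and 2 to 5 over the fits that left out 1 array. Of clock-related genes outside the 10, 12 to 24 were lower over the other settings and 15 to 23 with 1 array left out. Nono alone was higher, against 0 genes with the fixed replicate block or at 0.01, 2 with array weights or the lowest 50% left out, and 0 to 2 with 1 array left out. The fixed replicate block ended the calls of Per1 (adjusted p = 0.0615) and Npas2 (0.0869) and began that of Arntl (0.0176), and it ended those of Bhlhe40 (0.0510), Csnk1e (0.119), Nono (0.0827), Egr4 (0.0634), Zbtb16 (0.0618) and Nr3c1 (0.0584). The numbers are not shown to pair the samples: same-numbered arrays correlated above 0.1 in 2 of 5 cases. The random replicate block (correlation 0.00683) changed none of the 10 calls.

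With 1 array left out, the paralog differences ranged from -0.66 to -0.47 (Per1 minus Per3), -0.44 to -0.28 (Npas2 minus Clock), -0.44 to -0.285 (Per1 minus Per2), -0.29 to -0.07 (Per2 minus Per3), -0.05 to 0.075 (Cry1 minus Cry2) and -0.11 to 0.073 (Nr1d1 minus Nr1d2). Without both arrays numbered 1, Cry1 minus Cry2 was -0.03 and Nr1d1 minus Nr1d2 was 0.04. The cause of these changes was not tested. Over all genes, 369 were higher and 1305 lower, against 177 and 769 with the fixed replicate block, 656 and 1614 with array weights, 232 and 2623 with median centring, 47 and 537 at 0.01, and 111 to 760 higher and 740 to 1607 lower with 1 array left out. The median fold change over all genes was -0.05 with median centring and 0.02 on the deposited values. Fold changes under median centring and cyclic loess were -0.75 and -0.60 for Per1, -0.59 and -0.44 for Cry2, and -0.61 and -0.45 for Npas2. On the simulated data with 5 arrays per side, changes of 0.5 on the log2 scale were recovered in part only. The simulation gave both sides the same SD per gene, so that share need not hold for the measured arrays.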
